A study of Caenorhabditis elegans with 5 samples.

Results

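The fatty acid desaturases of the nematode Caenorhabditis elegans form a small family of membrane enzymes encoded by fat-1 to fat-7. Their genes were taken by symbol from the annotation of the array, which found 7 of 7 members among 17118 genes with a probe set of their own. A probe set is the group of short probes that reports on one transcript. Each member had 1 probe set, so no second probe set was at hand to check a value, and all 7 passed the filter on low levels.

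RNA of whole wild-type hermaphrodite worms was hybridised to 5 Affymetrix arrays, 1 array per group. The groups were an unexposed control and worms exposed for 24 h to benzene, to toluene, to formaldehyde or to the BTF mix, which holds the 3 compounds together. All worms came from age-synchronised cultures fed Escherichia coli OP50, and young adults aged 3 days were used. Exposure took place at 20 °C in a salt solution with no food, so every exposed group was also unfed. The labels state neither the doses nor how the control worms were kept during that time. The series screened for changes in transcripts after each compound and after their combination. With 1 array per group there is no spread between replicates, so no value below carries an error or a test, and "higher" and "lower" describe these arrays alone.

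Desaturases put double bonds into fatty acids one after another, and the worm can in this way make polyunsaturated fatty acids without a dietary source. FAT-5, FAT-6 and FAT-7 place the first double bond into a saturated fatty acid: FAT-5 works mainly on palmitic acid and yields palmitoleic acid, while FAT-6 and FAT-7 work mainly on stearic acid and yield oleic acid. FAT-2 turns oleic acid into linoleic acid, FAT-1 turns omega-6 into omega-3 fatty acids, and FAT-3 and then FAT-4 add the bonds nearest the carboxyl end that lead to arachidonic and eicosapentaenoic acid. The products go into membrane lipids, stored fat, yolk and signalling lipids. The genes for the first step are known in this worm to respond to food, temperature and the nuclear receptor NHR-49.

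The desaturases of the first step went opposite ways. fat-5 was at least 2-fold lower than control on all 4 exposed arrays, while fat-7 was higher on all 4 and past 2-fold after formaldehyde and after the mix. fat-6 was higher on all 4 by less than 2-fold. With arrays scaled on added poly-A spike transcripts instead, fat-5 was under 2-fold lower after benzene (-0.79) and formaldehyde (-0.99), fat-7 was under 2-fold higher after the mix (0.88) and fat-6 was level with control there (0.0022). Of the polyunsaturated steps, fat-3 and fat-4 were lower after formaldehyde and the mix, fat-1 was slightly above control on all 4 exposed arrays, fat-2 lay on both sides of it, and none of the 4 genes reached 2-fold. With poly-A scaling fat-1 was below control after the mix (-0.51), and fat-3 (-1.28) and fat-4 (-1.23) passed 2-fold there.

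**Figure D1:**
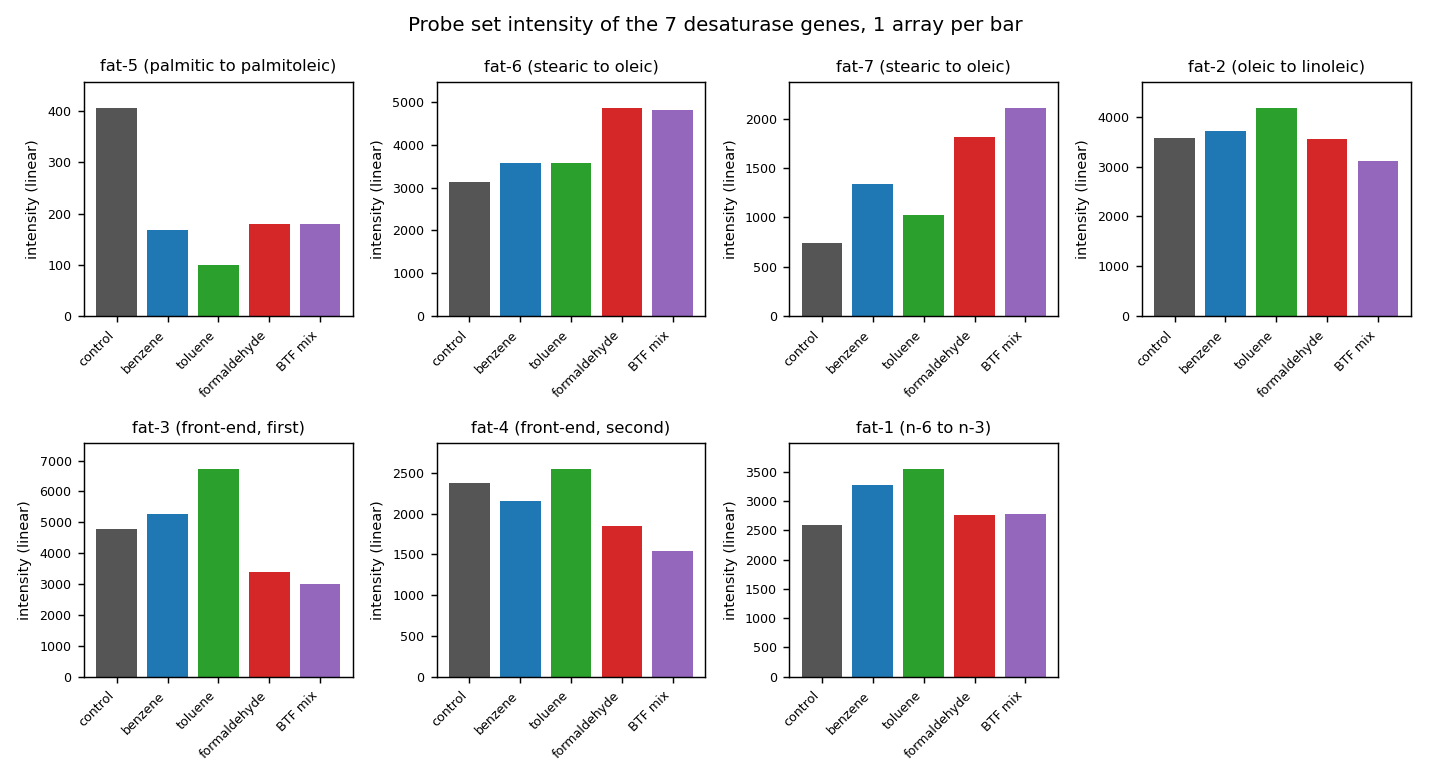
Probe set intensity (vertical axes, linear scale from 0) of each desaturase gene on the 5 arrays, 1 bar per array with no error since each group has 1 array. fat-5 is highest in control (406) and lowest after toluene (99.2), fat-7 is lowest in control (741) and highest after the BTF mix (2111), and fat-3 is highest after toluene (6724).

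The intensity of fat-5, which encodes the palmitic acid desaturase, was 406 in control, 167 with benzene, 99.2 with toluene, 179 with formaldehyde and 179 with the mix. The control array was thus the highest of the 5 and toluene the lowest, and the formaldehyde and mix arrays carried the same value. Such ties are common in the table: 2622 probe sets (11.6%) had equal values on these 2 arrays. Differences were taken on the log2(intensity + 16) scale, which slightly understates the difference of a dim gene. On it fat-5 stood at -1.20 with benzene, -1.87 with toluene, -1.11 with formaldehyde and -1.11 with the mix. Control was 2.30-fold above benzene, 3.66-fold above toluene and 2.16-fold above both formaldehyde and the mix. These 4 differences share the 1 control value. Among the exposed arrays alone, fat-5 was 0.67 higher with benzene than with toluene and 0.091 higher with formaldehyde than with benzene, both on the log2 scale, and with poly-A scaling the second turned to -0.20.

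The place of fat-5 among all genes depended on the exposure. Of the 10271 genes past the level filter, 0.0974% were lower relative to control than fat-5 on the benzene array, 1.80% on the formaldehyde array and 1.76% on the mix array, and no gene was lower with toluene. fat-5 lay outside the central 95% of genes on each exposed array, though further out on the benzene and toluene arrays than on the other two, where many genes differed. That central 95% of genes lay between -0.43 and 0.70 with benzene, between -0.43 and 0.49 with toluene, between -0.95 and 1.41 with formaldehyde and between -0.97 and 1.37 with the mix.

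fat-7 encodes a stearic acid desaturase. Its intensity was 741 in control, 1338 with benzene, 1029 with toluene, 1820 with formaldehyde and 2111 with the mix. Control was the lowest array and toluene the next, and the mix was the highest. The log2 differences from control were 0.84 with benzene, 0.47 with toluene, 1.28 with formaldehyde and 1.49 with the mix, or 1.79-fold, 1.38-fold, 2.43-fold and 2.81-fold. Few genes stood above it in any exposure: 1.70% of genes with benzene, 2.71% with toluene, 3.01% with formaldehyde and 2.10% with the mix had a larger positive difference. fat-7 therefore held about the same place among genes on each array although its size varied. It lay outside the central 95% of genes on the benzene and mix arrays and inside it on the toluene and formaldehyde arrays.

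fat-6 encodes the other stearic acid desaturase. It gave 3123 in control, 3585 with benzene, 3579 with toluene, 4857 with formaldehyde and 4807 with the mix. As deposited, its arrays fell into a lower trio (control, benzene and toluene) and a higher pair (formaldehyde and mix). The log2 differences were 0.20 with both benzene and toluene, 0.63 with formaldehyde and 0.62 with the mix. With poly-A scaling they were 0.64 with benzene, 0.33 with toluene, 0.76 with formaldehyde and 0.0022 with the mix, and this grouping was lost. As deposited, 30.6%, 29.1%, 13.6% and 13.9% of genes in that order were at least as far from control as fat-6. The name of its probe set carries the mark s, which stands for probes that can bind more than one related transcript, and FAT-6 and FAT-7 are close in sequence, so part of the fat-6 signal could come from fat-7 transcripts. That share was not tested. fat-6 was the 1 member with such a mark.

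Because a shift of a whole array cancels between genes of that array, the desaturases of the first step were also set against each other within arrays. Relative to control, fat-7 stood above fat-5 by 2.04 on the log2 scale with benzene, 2.34 with toluene, 2.39 with formaldehyde and 2.60 with the mix. These are changes of 4.12-fold, 5.06-fold, 5.24-fold and 6.07-fold in the ratio of the genes. The same contrast of fat-6 over fat-5 was 1.40, 2.07, 1.75 and 1.73. fat-7 over fat-6 was smaller, at 0.64, 0.27, 0.64 and 0.87 in that order of arrays. The balance of the first step thus lay further towards the stearic acid genes on every exposed array than in control, by a similar amount after toluene and formaldehyde, but through different genes: after toluene mostly by a lower fat-5, and after formaldehyde by a higher fat-7 and a lower fat-5 in similar parts.

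**Figure D2:**
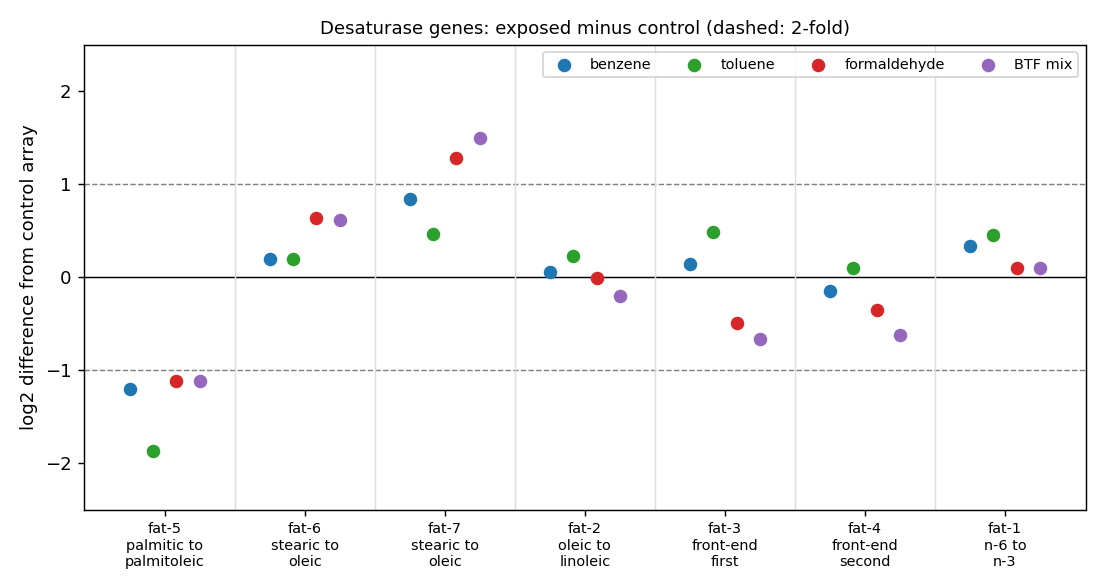
Log2 difference of each exposed array from the control array (vertical axis) for the 7 desaturase genes, 1 point per exposure, with dashed lines at 2-fold. All 4 fat-5 points lie below the lower line, the fat-7 points after formaldehyde (1.28) and the mix (1.49) lie above the upper line, and all other points lie between the lines.

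FAT-3 is the first enzyme of the branch that leads to arachidonic and eicosapentaenoic acid, and its gene had the widest range of the polyunsaturated steps. The intensity of fat-3 was 4782 in control, 5282 with benzene, 6724 with toluene, 3383 with formaldehyde and 3006 with the mix. Toluene was the highest array and the mix the lowest, a span of 2.23-fold. The log2 differences from control were 0.14 with benzene, 0.49 with toluene, -0.50 with formaldehyde and -0.67 with the mix. After toluene 2.42% of genes were higher, while after formaldehyde and the mix 8.58% and 5.26% of genes were lower.

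fat-4, whose enzyme acts after FAT-3, gave 2381 in control, 2151 with benzene, 2550.0 with toluene, 1855 with formaldehyde and 1541 with the mix. Toluene was again the highest array and the mix the lowest. Its log2 differences were -0.15, 0.10, -0.36 and -0.62. In the mix 5.94% of genes were lower than fat-4, close to the share for fat-3.

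FAT-2 makes linoleic acid, from which the other polyunsaturated fatty acids are made. The intensity of fat-2 was 3566 in control, 3712 with benzene, 4172 with toluene, 3552 with formaldehyde and 3103 with the mix. Its log2 differences were 0.06, 0.23, -0.0054 and -0.20, so the control and formaldehyde arrays were nearly equal: 93.2% of genes were at least as far apart between them.

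The omega-3 desaturase gene fat-1 gave 2589 in control, 3271 with benzene, 3553 with toluene, 2771 with formaldehyde and 2780 with the mix. Control was the lowest array and toluene the highest, and the formaldehyde and mix arrays were next to control. The log2 differences were 0.34, 0.45, 0.10 and 0.10. After toluene 2.97% of genes were higher than fat-1 and after benzene 8.45%.

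As deposited, toluene was thus the highest of the 5 arrays for all 4 polyunsaturated desaturase genes, but with poly-A scaling this held for fat-3 alone, and benzene was the highest for fat-1 (0.78 against 0.59 with toluene), fat-2 (0.50 against 0.36) and fat-4 (0.30 against 0.23). The mix was the lowest for fat-2, fat-3 and fat-4 on either scale. Their median log2 difference from control was 0.10 with benzene, 0.34 with toluene, -0.18 with formaldehyde and -0.41 with the mix, beside medians over all genes of -0.0090, -0.014, -0.046 and -0.037. In the gene table of the WBcel235 assembly, fat-1 and fat-2 are direct neighbours with 0 protein-coding genes between them, and so are fat-3 and fat-4. Over the 5 arrays, with each gene centred on its own mean, fat-1 and fat-2 were the most alike of the 21 pairs of members, with a root mean square difference of 0.11 in log2 level. fat-2 and fat-4 followed at 0.15 and fat-3 and fat-4 at 0.20, and fat-5 and fat-7 were the least alike at 0.95. This measure is small for any pair of genes that vary little, so the order of pairs partly follows how widely each gene varied. fat-1 and fat-2 had the narrowest log2 spans of the 7 members (0.45 and 0.43), and fat-5 and fat-7 the widest (1.87 and 1.49).

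Counted at 2-fold, 1 of 7 members (fat-5) was lower after benzene, where 0.175% of all genes past the level filter were, and 0 of 7 were higher, beside 1.2% of all genes. After toluene 1 of 7 was lower (fat-5), beside 0.0974% of genes, and 0 were higher, beside 0.107%. After formaldehyde 1 of 7 was higher (fat-7), beside 4.55% of genes, and 1 lower (fat-5), beside 2.27%. After the mix these counts were again 1 higher (fat-7), beside 4.34%, and 1 lower (fat-5), beside 2.31%. The median absolute log2 difference of the 7 members was 0.20 with benzene, 0.45 with toluene, 0.50 with formaldehyde and 0.62 with the mix, against 0.12, 0.11, 0.17 and 0.17 over all genes. The signed medians were 0.14, 0.23, -0.0054 and -0.20, since members lay on both sides of control.

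At a 1.5-fold size, fat-7 joined with benzene and fat-6 with formaldehyde and the mix on the higher side, and fat-3 and fat-4 joined with the mix on the lower side. That made 1 of 7 higher (3.48% of all genes) and 1 lower (0.915%) with benzene, 0 higher (1.57%) and 1 lower (0.789%) with toluene, 2 higher (8.67%) and 1 lower (6.43%) with formaldehyde, and 2 higher (8.46%) and 3 lower (6.63%) with the mix.

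**Figure D3:**
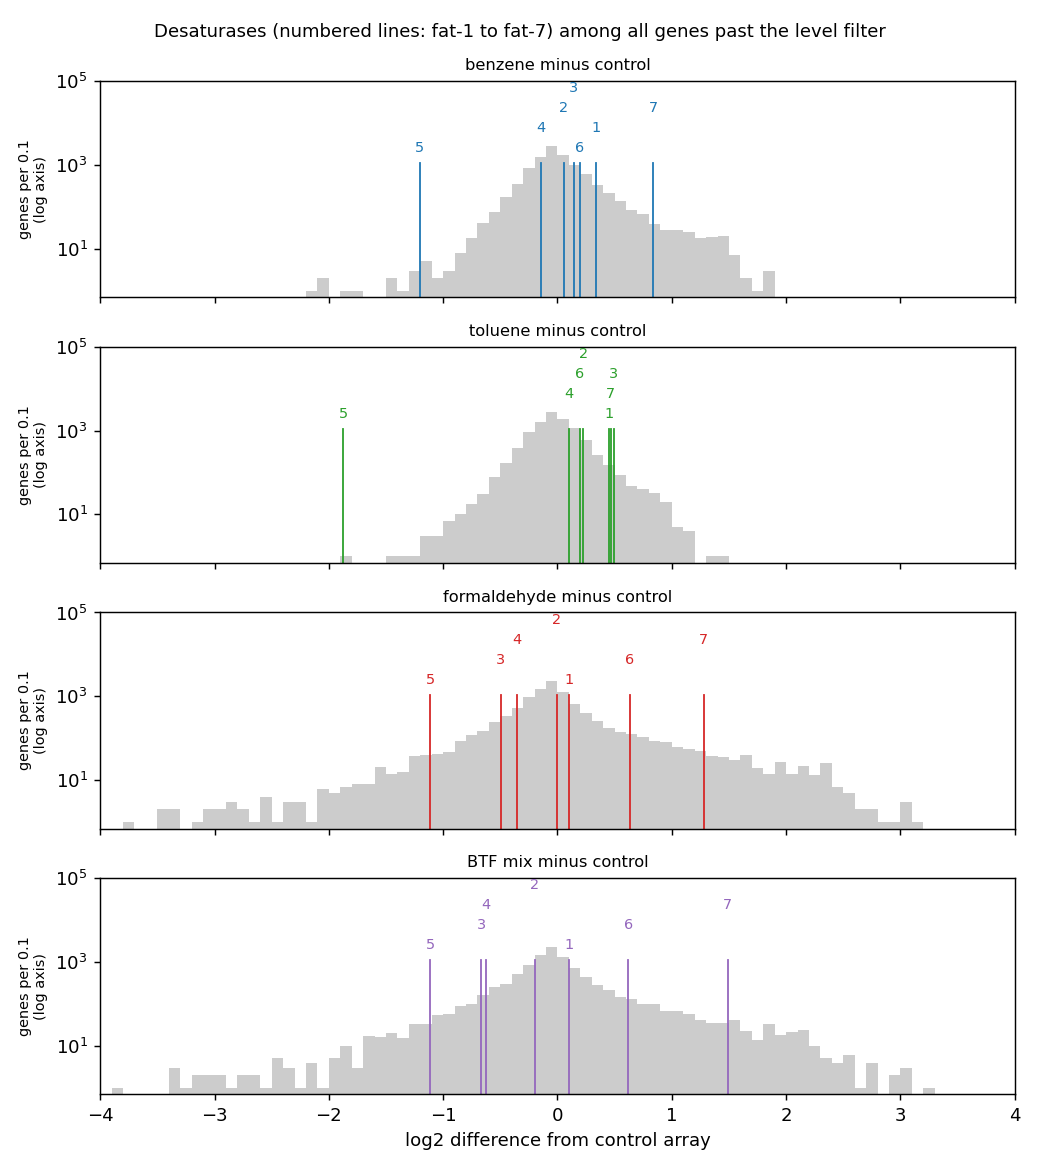
Number of genes per 0.1 of log2 difference from control (vertical axes, log scale; grey bars, 10271 genes) for each exposure, with a numbered line for each member from fat-1 to fat-7. fat-5 lies at the far left after toluene (-1.87), while after formaldehyde and the mix the wide spread of all genes surrounds both fat-5 and fat-7.

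Benzene and toluene differ by the methyl group that toluene carries on the ring. Their doses are not known, so the arrays are given side by side and not as a matched pair. Relative to toluene, benzene was higher by 0.67 for fat-5 and by 0.37 for fat-7 on the log2 scale, nearly equal for fat-6 (0.0025), and lower for all 4 polyunsaturated genes: fat-3 at -0.35, fat-4 at -0.24, fat-2 at -0.17 and fat-1 at -0.12. With poly-A scaling the last 3 turned, to 0.067 for fat-4, 0.14 for fat-2 and 0.19 for fat-1, and fat-3 came to -0.035. On that scale fat-6 was no longer nearly equal (0.31), and fat-7 came to 0.68 and fat-5 to 0.97. As deposited, none of the 7 reached 2-fold, beside 0.185% of all genes 2-fold higher and 0.0195% 2-fold lower after benzene. fat-5 was among the genes highest after benzene relative to toluene, with 0.750% of genes above it, and 1.03% of genes lay below fat-3.

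The mix was close to formaldehyde for fat-5, fat-6 and fat-1, with log2 differences between these arrays of 0 for fat-5, -0.015 for fat-6 and 0.0044 for fat-1. It was lower for fat-4 (-0.26), fat-2 (-0.19) and fat-3 (-0.17) and higher for fat-7 (0.21). With poly-A scaling the mix was lower for all 7 members, with fat-7 turned to -0.53, fat-5 at -0.68, fat-6 at -0.76 and fat-1 at -0.74. On that scale fat-3 came to -0.91, fat-2 to -0.94 and fat-4 to -1.004, the last past 2-fold. As deposited, no member was 2-fold apart between the mix and formaldehyde, beside 0.0389% of genes higher and 0% lower after the mix. For fat-4 2.26% of genes were lower and for fat-7 3.43% higher in this comparison. Formaldehyde against benzene gave 0.44 for both fat-6 and fat-7 and -0.64 for fat-3 as deposited. There 0 of 7 members were 2-fold apart, beside 1.11% of genes higher and 1.24% lower after formaldehyde. With poly-A scaling the values came to 0.12 for fat-6, 0.13 for fat-7 and -0.96 for fat-3.

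The arrays had median intensities between 82.3 and 84.8. Scaled on poly-A spikes, bacterial transcripts added to RNA samples as a standard, all genes shifted in the median, by 0.40 with benzene, 0.10 with toluene, 0.074 with formaldehyde and -0.61 with the mix. This scaling multiplies a whole array by a single factor. Relative to that shift the members therefore keep their differences by construction, here to within 0.042, which is no check of them. Without taking the shift off, fat-5 was still below and fat-7 above control on all 4 arrays, fat-6 with the mix came to 0.0022, and fat-1 with the mix (-0.51), fat-4 with benzene (0.30) and fat-2 with formaldehyde (0.12) changed sides. Across the settings other than poly-A scaling that keep control as the baseline, fat-2 took either sign after benzene (-0.015 to 0.058) and after formaldehyde (-0.056 to 0.021). The gap between the 3' and 5' control probe sets, a sign of RNA integrity, differed from the control array by -0.58 to -0.35 for actin and by -0.33 to 0.17 for Gapdh, on the log2 scale. Its part in the desaturase values was not tested.

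**Figure D4:**
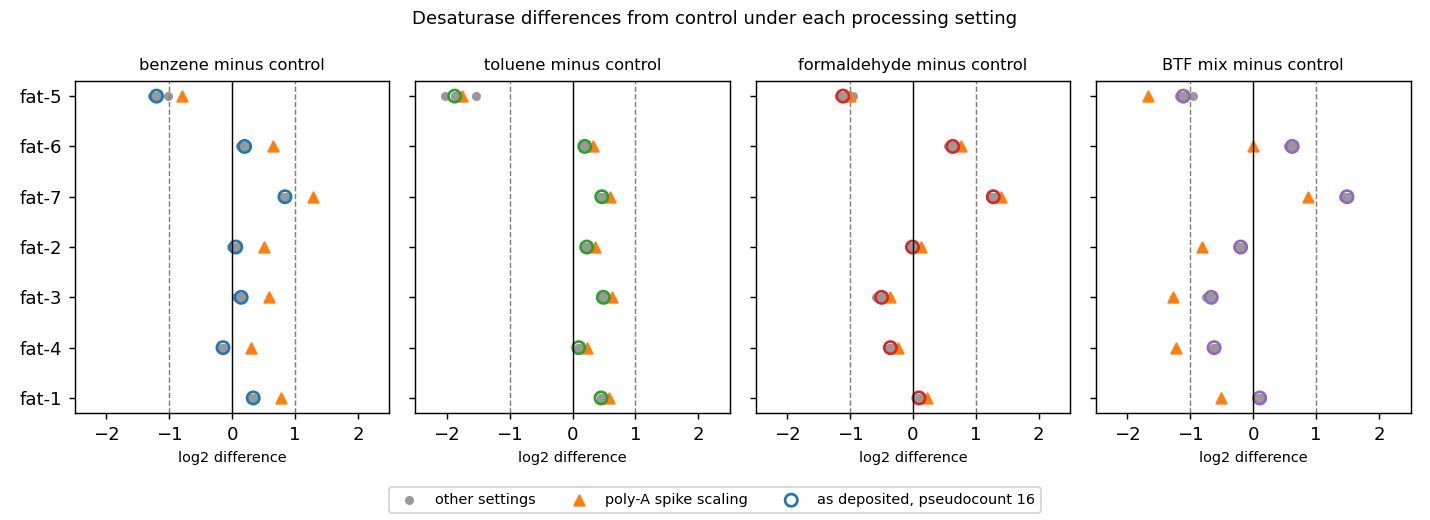
Log2 difference from control (horizontal axes) of each member in each exposure, as deposited (open circles), after scaling on poly-A spikes (triangles) and under the other settings that keep control as the baseline (grey points); dashed lines mark 2-fold. The median of the 5 arrays as baseline is not drawn. fat-5 stays left of 0 and fat-7 right of 0 in all panels, while the triangles of the mix lie to the left of the circles for all 7 genes.

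The genes around the desaturases were described by 8 fixed lists with 88 of 90 genes measured, of which 26 have a probe set with an s or x mark, the marks for probes that can bind several transcripts. Counts are at the same 2-fold size, to be read against the background shares already given, and a difference smaller than the poly-A shift of its array and of the other sign has no settled direction. Of 11 measured elongation genes, which lengthen fatty acids by pairs of carbons, 3 were higher after formaldehyde, beside 4.55% of all genes. The same 3 were higher after the mix, beside 4.34%, and 0 were lower in any exposure. elo-2, whose enzyme lengthens palmitic to stearic acid and so feeds FAT-6 and FAT-7, had intensities of 296 in control, 477 with benzene, 279 with toluene, 934 with formaldehyde and 921 with the mix (log2 differences 0.66, -0.08, 1.61 and 1.59). elo-5 and elo-6, which make branched-chain fatty acids, stood at 1.68 and 1.08 after formaldehyde and at 1.81 and 1.31 after the mix, both on marked probe sets. art-1, the gene for a predicted enoyl reductase of the elongation complex, stayed between -0.18 and 0.34. The formaldehyde and mix arrays were therefore high for elo-2 as for fat-7, while toluene was near control for elo-2 and low for fat-5.

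In fatty acid synthesis 0 of 8 genes were 2-fold away in any exposure. fasn-1, the fatty acid synthase gene, had log2 differences of 0.21 with benzene, 0.10 with toluene, -0.42 with formaldehyde and -0.64 with the mix, the same order of signs as fat-3. The citrate lyase gene acly-1 reached 0.43 after the mix, and gspd-1 and men-1, whose enzymes supply NADPH, stayed between 0.08 and 0.30.

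Of 11 genes for known regulators of desaturase genes, 0 were 2-fold away, and more of them lay below control than above it: 7 with benzene, 9 with toluene, 9 with formaldehyde and 8 with the mix, where 52.3%, 53.2%, 58.6% and 56.8% of all genes past the level filter did. sbp-1, the worm's SREBP transcription factor gene, had 456 in control, 321 with benzene, 305 with toluene, 271 with formaldehyde and 251 with the mix, with log2 differences of -0.49, -0.56, -0.72 and -0.82, on a marked probe set. scp-1, the gene for its cholesterol-sensing escort protein, was on the other side with formaldehyde (0.94) and the mix (0.98), with 0.23 with benzene and -0.20 with toluene. The nuclear receptor gene nhr-49 stood at -0.33, -0.28, -0.50 and -0.45, and mdt-15, the gene for a Mediator subunit that works with both factors, at -0.24, -0.09, -0.51 and -0.49. As deposited, lower values of sbp-1, nhr-49 and mdt-15 thus stood beside a lower fat-5 and a higher fat-7. Beside the poly-A shift, the direction after benzene was not settled for nhr-49, mdt-15, nhr-80 (-0.28), nhr-66 (-0.14), paqr-2 (-0.14) or daf-16 (-0.10). Of the benzene values below control, only that of sbp-1 was settled. It was also not settled for mdt-15 and iglr-2 (-0.03) after toluene or for nhr-13 after formaldehyde (-0.05). After the mix it was not settled for nhr-13 (0.02) and iglr-2 (0.05), which lay above control. A link of these regulators to the desaturase values was not tested.

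Cytochrome b5 hands electrons to desaturases, and its genes parted. cytb-5.1 was higher, at 0.50, 0.28, 0.55 and 0.81, and cytb-5.2 was lower, at -0.17, -0.07, -0.59 and -0.64, in the same order of arrays. The sphingolipid enzymes ttm-5 and fath-1 stayed between -0.19 and 0.25. None of the 6 genes of this list was 2-fold away.

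Among 16 genes of fasting and fatty acid oxidation, 2 were higher with benzene, 1 with toluene, 2 with formaldehyde and 3 with the mix. Of all genes past the level filter, 1.2%, 0.107%, 4.55% and 4.34% were. In this list 2 were lower with formaldehyde and 2 with the mix, beside 2.27% and 2.31% of all genes. Each of these list genes passed the level filter. The flavin monooxygenase gene fmo-2, a target of NHR-49, was high in all exposures (1.42, 1.46, 1.52 and 2.11). The acyl-CoA dehydrogenase gene acdh-1 had 3141 in control and 6502, 5278, 9086 and 8378 in the exposed arrays. The lysosomal lipase genes lipl-2 (-1.26 after formaldehyde, -1.58 after the mix) and lipl-4 (-1.21 and -1.15) were low. The median of this list was -0.07, -0.12, -0.27 and -0.36.

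Of 11 genes of phosphatidylcholine synthesis 0 were 2-fold away, but their median after formaldehyde was 0.50 and after the mix 0.54. The methionine adenosyltransferase gene sams-1 stood at 0.75 and 0.98 in these arrays, the phosphoethanolamine methyltransferase gene pmt-2 at 0.93 and 0.91 and cept-1, a gene of the last step, at 0.88 and 0.78. pmt-1, the gene of the first methylation step, was lower, at -0.54 and -0.78. After toluene these genes lay between -0.33 and 0.28.

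Among 10 genes that use polyunsaturated fatty acids 0 were 2-fold away. The acyl-CoA synthetase gene acs-3 was the furthest, at -0.79 after formaldehyde and -0.86 after the mix, and the epoxide hydrolase gene ceeh-1 was at -0.43 and -0.34. The cytochrome P450 genes cyp-29A3 (0.41 and 0.48) and cyp-33E1 (-0.43 and -0.41) lay on opposite sides, and cyp-33E1 did not pass the level filter. Of 15 measured genes of fat storage and lipid carriage, 4 were 2-fold higher with formaldehyde and 5 with the mix. Past the level filter these were 3 and 4 of 14, beside 4.55% and 4.34% of all genes. In this list 0 were higher after benzene or toluene and 0 were lower in any exposure. The lipid-binding protein genes lbp-2 (1.53 and 1.53), lbp-5 (1.06 and 1.04), lbp-6 (1.43 and 1.42) and lbp-8 (1.37 and 1.52) were among the 2-fold higher genes, lbp-8 on a marked probe set below the level filter. lbp-2 was also the highest of them after toluene (0.69).

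**Figure D5:**
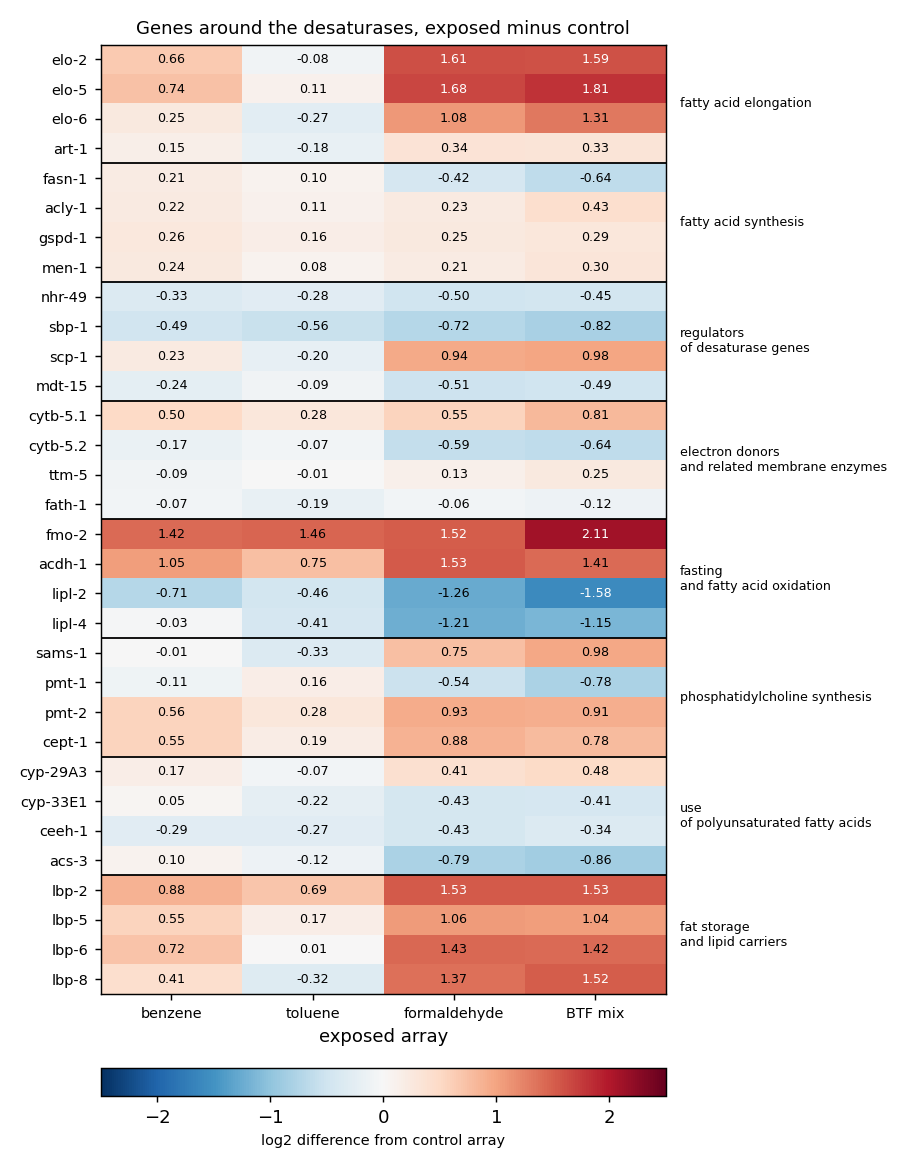
Log2 difference from the control array of the up to 4 genes furthest from control in each list (rows, lists named at the right) on each exposed array (columns), with the value printed in each cell, red for higher and blue for lower. The lipid carrier genes and elo-2, elo-5 and elo-6 are red after formaldehyde and the mix and pale after toluene, except lbp-2 (0.69), while sbp-1 and nhr-49 are blue on all 4 arrays.

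The genes whose pattern was most like a member were sought for the 3 members that spanned at least 1 on the log2 scale. Likeness was the root mean square difference of log2 levels over the 5 arrays, each gene centred on its own mean, so a small value means a near-equal profile. For fat-7 they were F53B2.8 (0.052, marked probe set), exh-1 (0.059) and the kynureninase gene kynu-1 (0.060, marked probe set). For fat-3 they were gbh-2 (0.043), a gene of carnitine synthesis by homology, the C-type lectin gene clec-1 (0.060) and the aspartate aminotransferase gene got-2.2 (0.067). fat-5 had no near match: its nearest genes were the prion-like abu-14 (0.29), the UDP-glucuronosyltransferase gene ugt-44 (0.32) and unc-41 (0.36), a gene of synaptic vesicle recycling. abu-14 had 1286 in control and 566, 574, 674 and 559 in the exposed arrays, so it was low in all exposures without the added drop after toluene, and ugt-44 was lowest after toluene as fat-5 was (-1.03).

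Whole worms mix all tissues, so fewer cells of a tissue and less RNA per cell cannot be told apart. Several desaturase genes are known to be active in the intestine, and 9 intestine markers were measured. After benzene 9 of 9 lay above control, with a median of 0.30 and 2 of them 2-fold higher. After formaldehyde 9 of 9 did, with a median of 0.71 and 3 at 2-fold, and after the mix 8 of 9, with a median of 0.56 and 4 at 2-fold. After toluene 5 of 9 did, with a median of 0.014 and 0 at 2-fold. After the mix the median and ges-1 (0.56), vha-6 (0.55), ifb-2 (0.37) and asp-1 (0.09) were smaller than the poly-A shift (-0.61). After toluene the same held for pho-1 (-0.08), vha-6 (-0.07) and elt-2 (-0.03), beside a shift of 0.10. The direction of these values was not settled. Of all genes past the level filter, 42.3% lay above control with benzene, 42.4% with toluene, 36.6% with formaldehyde and 38.7% with the mix. The shares 2-fold higher were 1.2%, 0.107%, 4.55% and 4.34% in the same order. The intestine markers had a summed intensity of 12414 in control and between 12906 and 18613 in the exposed arrays. Their part in the desaturase values was not tested. Hypodermis markers summed to between 4308 and 4867 over the 5 arrays, most of it from lin-26 (3591 in control), and 3 of 6 lay above control on each exposed array. After formaldehyde dpy-5 stood at 1.69 and rol-6 at 0.98, and lin-26 at -0.41 and wrt-2 at -0.33. Germline and oocyte markers summed to between 23452 and 24345. Muscle markers summed to between 14331 and 16602, most of it from unc-15 (9349 in control). Neuron markers summed to between 3368 and 4031, most of it from snb-1 (2990 in control). Of 5 neuron markers, 4 lay below control with benzene, 5 with toluene, 4 with formaldehyde and 4 with the mix. In that order rab-3, on a marked probe set, stood at -0.67, -0.64, -0.64 and -0.80. ric-19 stood at -0.91 after formaldehyde and -1.003 after the mix, the last past 2-fold. Of the benzene values below control, only that of rab-3 was larger than the poly-A shift. Markers of adult hypodermis and yolk, which an adult hermaphrodite should have, summed to between 46203 and 49287. Most of that came from the yolk genes vit-5 (18453 in control) and vit-6 (15982). The hypodermal col-19 stood at 0.35, 0.31, 0.68 and 0.52, the last smaller than the poly-A shift, and vit-2 at -0.35 after formaldehyde. The 4 male markers, none of which passed the level filter, summed to between 125 and 129. Sperm markers summed to 1599.6 in control and to between 2979 and 8082 in the exposed arrays, highest after formaldehyde. Most of that highest sum came from msp-64 (2518) and msp-152 (4811), both on marked probe sets. On the log2 scale gsp-3, also on a marked probe set, stood at 1.95 and spe-11 at 1.02 after formaldehyde. There spe-9 (0) and fer-1 (0.05) were near control, and neither passed the level filter.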

How the data were processed

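The authors deposited 1 table of probe set intensity, linear and between 9.15 and 22222, with 22625 probe sets per array. The tools named in the submitters' processing notes are MAS5, RMA and Affymetrix Expression Console 1.1, with no role stated; the quartiles of the arrays are nearly equal, and a scaling that makes arrays alike removes any change in total RNA. Per the labels' protocols, labelling started from 300 ng of RNA and primed at the 3' end. Probe sets of 1 gene (20766) were named by the platform annotation, and a gene took its probe set of highest mean. Values were taken to log2(intensity + 16), and 10271 genes reached the 40th percentile of mean level (6.05). With 1 array per group no test was made, and 2-fold is a fixed size. Described were all 7 members, up to 4 genes of each list with the largest absolute difference, and the 3 genes of nearest profile for members spanning at least 1. The members, lists and settings were chosen with earlier results of these data known. Other settings were median centring, quantile normalization, scaling on 24 poly-A probe sets, pseudocounts of 1 and 64, the mean of probe sets, no s or x probe sets, a 1.5-fold size, the median of the 5 arrays as baseline, and other level filters. The steps were tested on simulated data. Python 3.11.15, numpy 2.4.6, pandas 2.3.3 and matplotlib 3.10.9 were used.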

Additional observations from a re-analysis of the deposited data

How the results depend on the processing

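No paired analysis was possible because each group has 1 array and no result comes from a test. Median centring, quantile normalization and a pseudocount of 1 moved no desaturase value by over 1.5 times or across 2-fold. Median centring and quantile normalization could move little, since the deposited arrays were already nearly equal in median (82.3 to 84.8) and quartiles. The mean of probe sets could move none, since each member has 1 probe set. Leaving out s and x probe sets removed fat-6 and by construction kept the values of the other members. With a pseudocount of 64, fat-5 after formaldehyde and after the mix came to -0.95, and 0 members were 2-fold lower there. With poly-A scaling, fat-5 came to -0.79 after benzene and -0.99 after formaldehyde, so 0 members were 2-fold lower on either, and fat-7 after benzene to 1.28, so 1 was higher. After the mix, poly-A scaling gave -0.51, -0.82, -1.28 and -1.23 for fat-1 to fat-4, 0.0022 for fat-6 and 0.88 for fat-7, a desaturase median of -0.82, 3 members 2-fold lower and 0 higher; the mix minus formaldehyde became -0.74, -0.94, -0.91, -1.004, -0.68, -0.76 and -0.53 for fat-1 to fat-7. At a 1.5-fold size, 1 member was higher after benzene (3.48% of all genes), 2 after formaldehyde (8.67%) and 2 after the mix (8.46%), and 3 were lower after the mix (6.63%). Against the median of the 5 arrays, which is close to the exposed arrays by construction, no member was 2-fold away (0 lower and 0 higher in each exposure): fat-5 stood at -0.091 after benzene, -0.76 after toluene and 0 after formaldehyde and the mix, and fat-7 at 0, -0.37, 0.44 and 0.65. With no level filter the shares of all genes 2-fold higher were 0.724% (benzene), 2.82% (formaldehyde) and 2.66% (mix), and 2-fold lower 0.105% (benzene), 0.0584% (toluene), 1.41% (formaldehyde) and 1.43% (mix), since dim genes were added. Counting only list members past the filter kept each list's count within 1.5 times. The number of arrays, 1 per group, limits the precision.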
